A study of Mus musculus with 9 samples.

Results

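The comparison of Rb/p107 double knockout (DKO) retinas with Rb knockout (Rb KO) retinas asks what differs when loss of p107 is added to loss of Rb. It used 6 of the 9 arrays of the series, 3 DKO and 3 Rb KO, and 24259 genes, each gene with 1 symbol being read through its brightest probe set. The 3 wild-type (WT) arrays entered the estimate of the spread and are set beside the mutants. All 3 groups were whole retinas of mice of the mixed strain C57Bl/6x129SvJ at P8, that is day 8 after birth. The labels describe the mutants as Rb KO and Rb/p107 DKO. They name no Cre line, promoter or allele, so the cells in which the genes were removed are not known here, and they give no sex or litter. Arrays of 1 group are biological replicates per the series design, and p-values measure the spread between these retinas only. Values are log2 intensities, and a difference is DKO minus Rb KO on the log2 scale, where 1 unit is a doubling. Arrays of a group are numbered by replicate.

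Rb (gene Rb1), p107 (gene Rbl1) and p130 (gene Rbl2) are the pocket proteins. They hold E2F transcription factors in check and stop the cell cycle, and p107 and p130 also form the DREAM complex, which represses genes of the later cell cycle through a promoter element called CHR. Retinal progenitors leave the cell cycle as they become neurons, and p107 is known to take over part of the work of Rb in the mouse retina when Rb is lost.

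Rb1 read 10.00, 10.19 and 10.46 in WT, 9.85, 10.02 and 9.86 in Rb KO against 9.74, 10.00 and 9.85 in DKO. The mutant arrays overlapped, and the difference was -0.04 (SE 0.117, adjusted p = 0.956 in limma). Rbl2 read 8.93, 9.04 and 9.02 in Rb KO against 8.91, 9.01 and 8.94 in DKO, a difference of -0.04 (SE 0.0763, adjusted p = 0.924) with a 95% confidence interval of -0.21 to 0.13. Rbl1 and nearly all other genes of chromosomes 1, 2 and 3 were not analysed here. The deleted parts of the genes are not known here, so the Rb1 reading checks neither knockout. Between 27.2% and 36.4% of genes read higher than the 95th percentile of that array's negative controls, a level of 7.94 to 8.5 that is called background below. Arrays of the same mutant group correlated at 0.996 to 0.998, and a DKO with an Rb KO array at 0.992 to 0.995. DKO array 2 stood apart: Xist, the X-inactivation RNA, read 5.47 there and 11.44 to 12.15 in the other arrays, and 14 lens genes averaged 8.56, against 6.91 to 7.43. The 9 sex-linked genes, Xist among them, averaged 6.42 in DKO array 2 and 5.89 to 6.09 in the other arrays. Whether DKO array 2 differed in sex from the others was not tested. Crx, a defining photoreceptor transcription factor, read 10.99 to 12.33 over the 9 arrays.

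Few genes passed the adjusted threshold between DKO and Rb KO, while 3293 had an unadjusted p under 0.05 in limma. Genes that did not pass are not shown to be equal. Of 24259 genes, 617 (2.54%) passed at an adjusted p under 0.05, 324 (1.34%) higher and 293 (1.21%) lower in DKO. These shares over all genes are the ones to set beside the counts of called list members below. On the same arrays 5923 genes (24.4%) were called in Rb KO against WT and 7113 (29.3%) in DKO against WT. The median size of the 617 differences was 0.61, and 53 rises and 63 falls were at least 2-fold. Probe sets of near-identical copies share readings, so the 617 calls have 550 distinct profiles, 287 of them higher and 263 lower. The median is also the difference of Rn5s, a 5S RNA gene with such shared readings. In 240 of the calls (133 of them rises) no array of either mutant was above background, so these are differences between background readings with no measured size. In a further 49 rises and 49 falls the lower group was not above background. There the bound written below as "at least" sets the higher group against background and leaves out the spread between arrays. The remaining 142 rises and 137 falls were measured in both groups. The 3 DKO arrays did not overlap the 3 Rb KO arrays in any called gene, nor did they in 22.1% of all genes. Subtracting the median negative control reading of each array left 133 calls, of which 26 were rises. The count of calls fell to 302 without Rb KO array 1, 300 without Rb KO array 3, 271 without DKO array 1 and 253 without DKO array 3, and was 497 without DKO array 2.

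**Figure D1:**
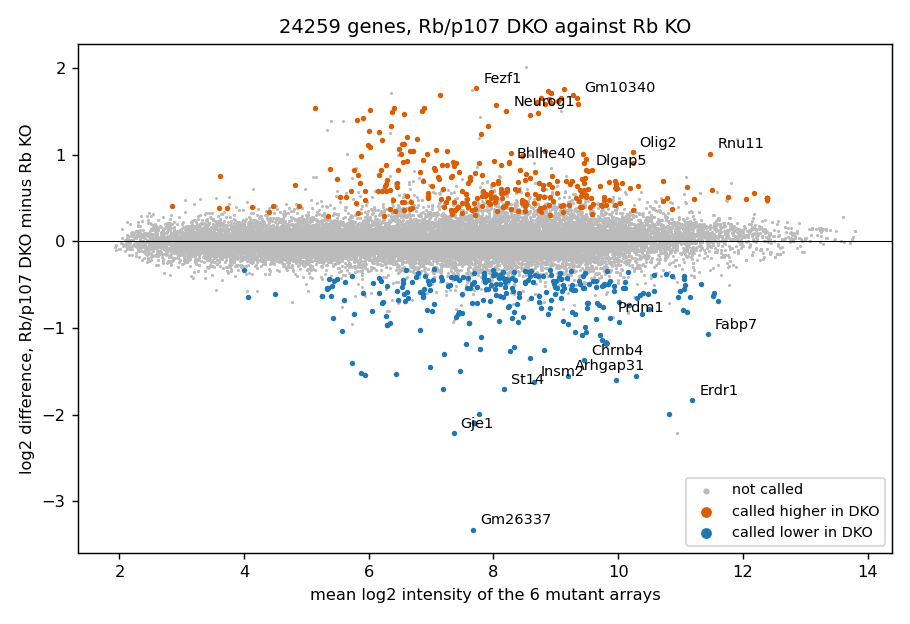
Each point is 1 of 24259 genes: its mean log2 intensity over the 6 mutant arrays on the x axis and its log2 difference, DKO minus Rb KO, on the y axis, with the 324 genes called higher in orange and the 293 called lower in blue. Most points lie in a narrow band around 0, the called genes lie on both sides of it, and Gm26337, a small nucleolar RNA gene, is lowest at -3.33.

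Neurog1, a proneural basic helix-loop-helix (bHLH) factor, and Olig2, a bHLH factor of progenitors and of the oligodendrocyte lineage, were higher in DKO. Prdm1 and Otx2, which direct precursors to the photoreceptor fate, were lower, as were Crx and Nrl, which drive photoreceptor and rod genes. In a list of 14 photoreceptor precursor and fate genes, 1 was called higher (Olig2) and 5 lower (Prdm1, Otx2, Casz1, Crx and Nrl), with a list median of -0.17, beside -0.003 over all genes. In bulk tissue fewer cells of a type and less RNA per cell cannot be told apart.

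Neurog1 read 6.62, 6.65 and 6.57 in WT, 7.55, 7.63 and 7.18 in Rb KO against 9.25, 8.73 and 8.87 in DKO. The 3 groups did not overlap. No Rb KO array was above background and all 3 DKO arrays were, so DKO was at least 1.48-fold higher (fitted difference 1.5, SE 0.143, adjusted p = 2.74e-04). Olig2 read 7.61, 7.53 and 7.57 in WT, 9.86, 10.02 and 9.28 in Rb KO against 10.89, 10.77 and 10.57 in DKO, again with 3 separate groups. It was 2.04-fold higher in DKO than in Rb KO (difference 1.03, SE 0.163, adjusted p = 0.00814). Pou3f2, a POU-domain factor of neural precursors, read 6.40 to 6.63 in WT, 7.86, 8.34 and 7.70 in Rb KO against 9.12, 8.93 and 8.80 in DKO (0.98, SE 0.153, adjusted p = 0.00738). Lmo3, a LIM-only cofactor, read 7.12 to 7.29 in WT, 7.53, 7.68 and 7.42 in Rb KO against 8.48, 8.45 and 8.49 in DKO, at least 1.06-fold higher (0.93, SE 0.0846, adjusted p = 1.82e-04). In both genes too the 3 groups were separate, and all 4 calls were kept in each fit without 1 array. After background subtraction the calls of Olig2 (adjusted p = 0.116) and Pou3f2 (adjusted p = 0.131) ended.

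Prdm1, a zinc-finger repressor that keeps precursors from becoming bipolar cells, read 9.18, 9.20 and 9.24 in WT, 10.36, 10.34 and 10.24 in Rb KO against 9.61, 9.41 and 9.27 in DKO. It was high in the 3 Rb KO arrays and lower in all DKO arrays (-0.88, SE 0.09, adjusted p = 4.68e-04). Against the same WT arrays it differed by 1.10 in Rb KO (adjusted p = 1.29e-05) and by 0.22 in DKO (adjusted p = 0.0933). Otx2, needed for photoreceptor and bipolar fate, read 10.81, 10.92 and 10.82 in WT, 11.19, 11.28 and 11.35 in Rb KO against 10.82, 10.70 and 10.59 in DKO (-0.57, SE 0.0817, adjusted p = 0.00469). The DKO readings overlapped those of WT and lay below all those of Rb KO. Casz1, a zinc-finger regulator of retinal cell fate, read 9.77 to 9.94 in WT, 9.55, 9.25 and 9.42 in Rb KO against 8.59, 8.85 and 8.82 in DKO (-0.66, SE 0.101, adjusted p = 0.00695). These 3 calls were kept in each fit without 1 array, and background subtraction ended that of Casz1 (adjusted p = 0.071).

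Crx read 12.25, 12.33 and 12.31 in WT, 11.74, 11.70 and 12.07 in Rb KO against 10.99, 11.40 and 11.33 in DKO (-0.60, SE 0.123, adjusted p = 0.0297). Nrl, the factor that determines rods, read 9.92, 10.01 and 9.90 in WT, 9.04, 8.80 and 9.30 in Rb KO against 8.19, 8.57 and 8.48 in DKO (-0.63, SE 0.13, adjusted p = 0.0304). For both genes the levels stepped down from WT to Rb KO to DKO without overlap. Crx was named after its values were seen. Both calls ended without WT array 3, Rb KO array 1 or 3, or DKO array 1 or 3 (adjusted p = 0.0505 to 0.106 for Crx and 0.0512 to 0.12 for Nrl), and with median centring, with only the 6 mutant arrays, or after background subtraction. Other members that did not pass included Rorb, a nuclear receptor upstream of Nrl, at 0.10 (adjusted p = 0.796), Neurod4, a bHLH factor, at -0.18 (adjusted p = 0.49) and Thrb, a thyroid hormone receptor of cones, at -0.45 (adjusted p = 0.421), all chosen after their values were seen.

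**Figure D2:**
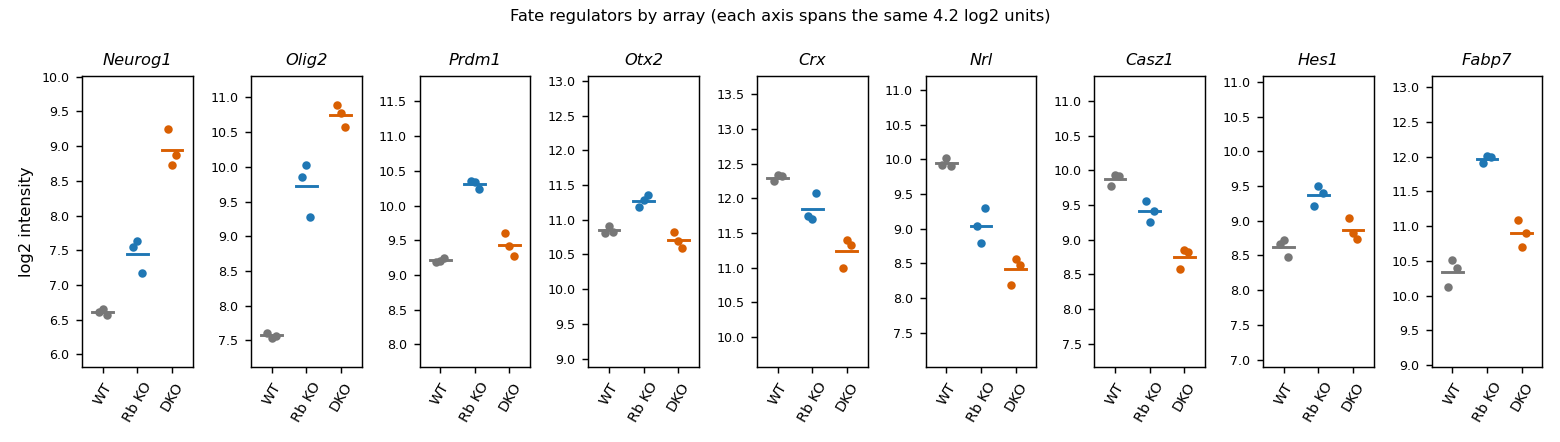
Log2 intensity of 9 fate regulators and progenitor genes in the 3 WT, 3 Rb KO and 3 DKO arrays, 1 panel a gene, each point an array and each bar the group mean. Neurog1 and Olig2 step up from WT through Rb KO to DKO, Crx, Nrl and Casz1 step down, and Prdm1, Otx2, Hes1 and Fabp7 are highest in Rb KO.

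Of 23 proneural and Notch pathway genes, 3 were called higher (Olig2, Neurod6 and Hey2) and 1 lower (Hes1), with a list median of 0.08. Hes1, a Notch target that represses neuronal differentiation, read 8.48 to 8.72 in WT, 9.22, 9.50 and 9.40 in Rb KO against 9.04, 8.82 and 8.74 in DKO (-0.50, SE 0.106, adjusted p = 0.034). Hey2, another Notch effector, read 9.21, 9.32 and 9.03 in Rb KO against 9.63, 9.62 and 9.48 in DKO (0.39, SE 0.088, adjusted p = 0.0441). These effectors of the same pathway thus differed in opposite directions. The Hes1 call ended without Rb KO array 2 or 3 or DKO array 2 or 3 (adjusted p = 0.101 to 0.153), and that of Hey2 without WT array 1 or 3, Rb KO array 1 or 3, or any DKO array (adjusted p = 0.0594 to 0.183). Both also ended with median centring and after background subtraction. That of Hes1 ended with the replicate block too (adjusted p = 0.053), and that of Hey2 with only the 6 mutant arrays (adjusted p = 0.0552). Hes5, a further Notch target, and Dll1, a Notch ligand, did not pass at 0.31 (adjusted p = 0.354) and 0.03 (adjusted p = 0.985).

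Among 25 progenitor genes Olig2 was called higher and Fabp7 and Hes1 lower, with a list median of 0.20. Fabp7, a fatty acid binding protein of progenitors and glia, read 10.12, 10.51 and 10.39 in WT, 11.91, 12.01 and 11.99 in Rb KO against 11.09, 10.70 and 10.90 in DKO. It was high in Rb KO and 2.1-fold lower in DKO (-1.07, SE 0.119, adjusted p = 9.03e-04), with no overlap, and neither a single array nor background subtraction ended the call.

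Other large rises were of genes outside these lists. Rnu11, the U11 RNA of the minor spliceosome, read 10.05, 9.98 and 10.01 in WT, 11.10, 11.00 and 10.82 in Rb KO against 12.14, 11.92 and 11.89 in DKO. The 3 groups stepped up without overlap, and the difference between the mutants was 1.01 (SE 0.0928, adjusted p = 1.97e-04). Pisd-ps3, a pseudogene of a phosphatidylserine decarboxylase, read 8.98, 8.88 and 9.17 in Rb KO against 9.84, 9.92 and 10.11 in DKO (0.95, SE 0.102, adjusted p = 7.05e-04). Both calls held in each fit without 1 array and after background subtraction. Rasgrf1, an exchange factor that activates Ras, read 8.92, 9.28 and 8.93 in WT, 7.90, 8.03 and 8.10 in Rb KO against 8.70, 8.83 and 8.98 in DKO. Only the Rb KO group was low, and DKO was at least 1.36-fold higher than Rb KO (0.82, SE 0.113, adjusted p = 0.00369; 0.0589 after background subtraction).

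Kcnk1, a potassium leak channel, was likewise lowest in Rb KO, at 9.89, 10.15 and 9.43 in WT, 9.10, 9.29 and 9.13 in Rb KO against 10.12, 9.88 and 10.00 in DKO (0.82, SE 0.153, adjusted p = 0.0191). Frem1, an extracellular matrix protein, read 8.40, 8.44 and 7.94 in Rb KO against 9.0, 9.25 and 8.94 in DKO (0.80, SE 0.135, adjusted p = 0.0112). In both genes the mutant arrays were separate, which the rule for these named rises required. Adgrg1, an adhesion receptor also known as GPR56, read 9.29, 9.19 and 8.54 in Rb KO against 10.07, 9.68 and 9.96 in DKO (0.90, SE 0.175, adjusted p = 0.0253). Gas2l3, a linker of microtubules and actin in dividing cells, read 7.0 to 7.38 in WT, 9.55, 10.17 and 9.63 in Rb KO against 10.77, 10.60 and 10.67 in DKO (0.90, SE 0.157, adjusted p = 0.0141). Adarb2, of the RNA-editing enzyme family, read 8.04, 8.33 and 8.01 in Rb KO against 9.10, 8.58 and 9.02 in DKO (0.77, SE 0.143, adjusted p = 0.0191). The calls of Kcnk1, Gas2l3 and Adarb2 each ended without Rb KO array 1 or 3 or DKO array 1 or 3 (adjusted p = 0.0567 to 0.0954 over the 3 genes) and that of Adgrg1 without DKO array 1 or 3 (adjusted p = 0.0961 to 0.104). Background subtraction ended all 5 (adjusted p = 0.131 to 0.181), and median centring that of Kcnk1 (adjusted p = 0.0522).

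**Figure D3:**
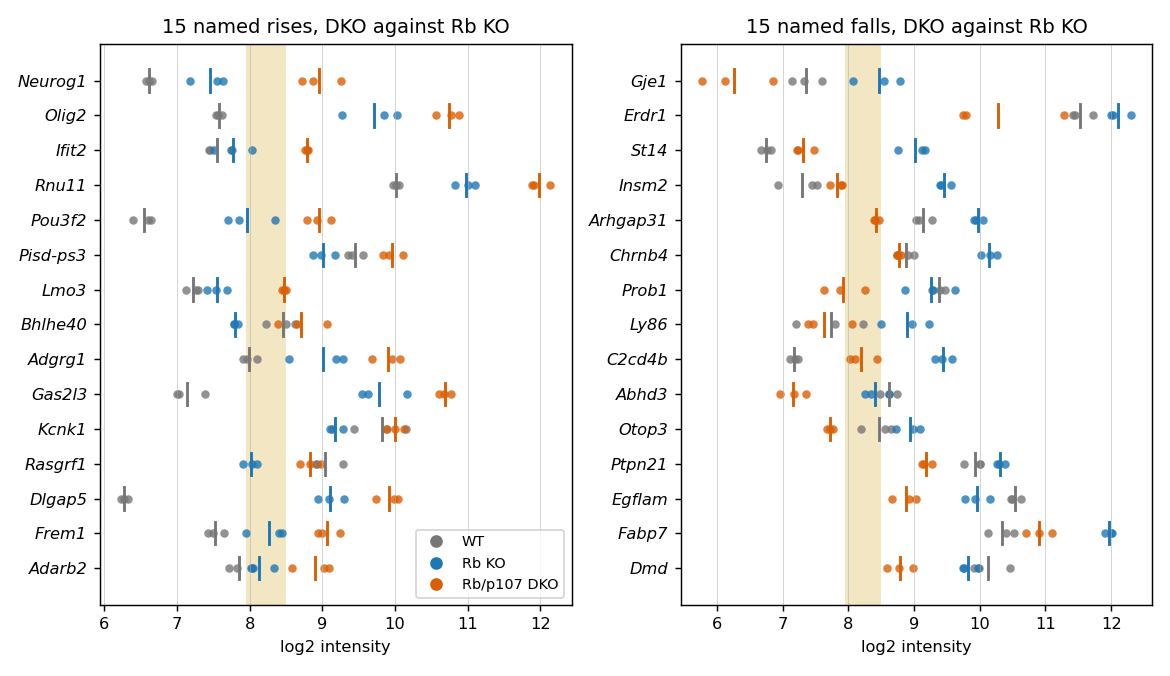
Log2 intensity of the 15 named rises (left) and the 15 named falls (right) in the 9 arrays, each point an array and each bar the group mean, with the range of the background percentile over the arrays shaded. The rule that picked these genes required the 3 orange DKO points to lie apart from the 3 blue Rb KO points. The grey WT points lie below, between or above them depending on the gene.

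The largest falls included genes that were high in the Rb KO arrays and nearer to the WT level, or below it, in the DKO arrays. St14, the membrane protease matriptase, read 6.82, 6.68 and 6.76 in WT, 9.12, 9.16 and 8.76 in Rb KO against 7.48, 7.21 and 7.24 in DKO. No DKO array was above background, so DKO was at least 1.55-fold lower than Rb KO (fitted difference -1.70, SE 0.116, adjusted p = 7.88e-05). Insm2, a zinc-finger factor of the insulinoma-associated family, read 6.93 to 7.53 in WT, 9.41, 9.56 and 9.39 in Rb KO against 7.89, 7.71 and 7.90 in DKO, at least 2.11-fold lower (-1.62, SE 0.138, adjusted p = 1.08e-04). In St14 and Insm2 all DKO arrays still read above all WT arrays (adjusted p = 0.00419 and 0.0143 in limma), though neither group was above background. Chrnb4, a nicotinic acetylcholine receptor subunit, read 8.74, 8.99 and 8.92 in WT, 10.15, 10.01 and 10.26 in Rb KO against 8.76, 8.74 and 8.80 in DKO. It was 2.59-fold lower in DKO than in Rb KO (-1.37, SE 0.0884, adjusted p = 6.14e-05), and against the WT arrays DKO differed by -0.12 (adjusted p = 0.357). Insm2 was called lower under every setting but background subtraction (adjusted p = 0.0556), and St14 and Chrnb4 under every setting.

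Arhgap31, a GTPase-activating protein for Cdc42 and Rac, read 9.04, 9.27 and 9.08 in WT, 10.05, 9.91 and 9.95 in Rb KO against 8.46, 8.39 and 8.40 in DKO. It was raised in Rb KO and below WT in DKO, and was 2.93-fold lower in DKO than in Rb KO (-1.55, SE 0.0812, adjusted p = 1.6e-05). C2cd4b, a C2-domain protein, read 7.11 to 7.24 in WT, 9.57, 9.42 and 9.32 in Rb KO against 8.02, 8.10 and 8.44 in DKO (-1.25, SE 0.112, adjusted p = 1.54e-04). Against WT, DKO was still higher in C2cd4b, by a fitted 1.01 (adjusted p = 8.07e-05), with 1 DKO array and no WT array above background. Ptpn21, a tyrosine phosphatase, read 9.76 to 10.00 in WT, 10.30, 10.26 and 10.38 in Rb KO against 9.11, 9.27 and 9.15 in DKO (-1.13, SE 0.0857, adjusted p = 1.03e-04). These 3 calls held under every setting. Gje1, a connexin-family gene, read 7.15 to 7.60 in WT, 8.07, 8.54 and 8.78 in Rb KO against 5.78, 6.85 and 6.13 in DKO, at least 1.06-fold lower (fitted difference -2.21, SE 0.253, adjusted p = 0.00111; 0.0697 after background subtraction).

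Egflam and Dmd, which encode pikachurin and dystrophin, proteins of the photoreceptor synapse, both fell. Egflam read 10.49, 10.63 and 10.48 in WT, 9.93, 9.78 and 10.15 in Rb KO against 8.67, 9.03 and 8.93 in DKO, which was 2.11-fold below Rb KO (-1.08, SE 0.115, adjusted p = 6.74e-04). Dmd read 9.99, 9.91 and 10.47 in WT, 9.75, 9.77 and 9.97 in Rb KO against 8.59, 8.98 and 8.77 in DKO, which was 2.06-fold below Rb KO (-1.05, SE 0.148, adjusted p = 0.00436). Egflam stepped down through the 3 groups, while the Dmd readings of WT and Rb KO overlapped. Abhd3, a phospholipase, read 8.48 to 8.74 in WT, 8.25, 8.35 and 8.62 in Rb KO against 6.96, 7.35 and 7.17 in DKO (-1.24, SE 0.123, adjusted p = 3.8e-04, at least 1.02-fold). Prob1, a proline-rich protein, read 9.27 to 9.47 in WT, 9.29, 8.87 and 9.63 in Rb KO against 7.62, 8.25 and 7.87 in DKO (-1.35, SE 0.189, adjusted p = 0.00418, at least 1.84-fold). In both genes WT and Rb KO overlapped and DKO was low. No single array ended these 4 calls, and background subtraction ended those of Dmd (adjusted p = 0.0751) and Prob1 (adjusted p = 0.0857).

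Erdr1, named for erythroid differentiation, read 11.41 to 11.72 in WT, 12.30, 12.02 and 11.99 in Rb KO against 11.28, 9.74 and 9.79 in DKO (-1.84, SE 0.326, adjusted p = 0.0151). DKO array 1 lay near the WT arrays and the other DKO arrays far below. The call ended without Rb KO array 1 or DKO array 3 (adjusted p = 0.0667 to 0.083). Ly86, a surface partner of an innate immune receptor, read 7.20 to 8.22 in WT, 8.97, 9.22 and 8.50 in Rb KO against 7.46, 7.39 and 8.05 in DKO (-1.27, SE 0.265, adjusted p = 0.0318, at least 1.43-fold). This call ended without WT array 3, Rb KO array 1 or 2, or DKO array 1 or 2 (adjusted p = 0.0579 to 0.13) and with limma-trend (adjusted p = 0.0616). Both calls ended after background subtraction (adjusted p = 0.154 for Erdr1 and 0.208 for Ly86).

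Of 59 genes of G2 and mitosis measured, 11 were called higher in DKO than in Rb KO and none lower, and the others did not pass. In all 53 of the 59 were above background in at least 1 mutant array. The median difference was 0.40, and all 59 fitted differences were above 0, up to 0.81. The genes called were Dlgap5, Troap, Cdc25c, Pimreg, Cenpa, Racgap1, Cep55, Cenpm, Pttg1, Cdc20 and Kif18b, of which those after the first 3 were named after their values were seen. The mean of the list was 6.70 to 6.85 in WT, 9.12, 9.33 and 8.94 in the Rb KO arrays against 9.65, 9.38 and 9.49 in the DKO arrays. The mutants thus both stood far above WT, and the lowest DKO array, replicate 2, lay just above the highest Rb KO array, replicate 2.

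Dlgap5, a protein of spindle microtubules, read 6.23 to 6.32 in WT, 9.09, 9.30 and 8.95 in Rb KO against 10.05, 9.74 and 9.98 in DKO (0.81, SE 0.106, adjusted p = 0.00271). Troap, a spindle-associated protein, read 8.55, 8.54 and 8.37 in Rb KO against 9.24, 8.95 and 9.08 in DKO (0.60, SE 0.095, adjusted p = 0.0078). Both calls were kept without any 1 array. Cdc25c, the phosphatase that activates the mitotic kinase, read 8.17, 8.45 and 8.06 in Rb KO against 9.14, 8.75 and 8.99 in DKO (0.73, SE 0.131, adjusted p = 0.0152; 0.0694 to 0.0755 without Rb KO array 1 or 3 or DKO array 1 or 3). Cdc20, the activator of the anaphase-promoting complex, read 8.82, 8.90 and 8.52 in Rb KO against 9.49, 9.11 and 9.31 in DKO (0.56, SE 0.126, adjusted p = 0.0447; 0.0516 to 0.179 without WT array 1 or 3, any Rb KO array, or DKO array 1 or 3). In each of the 4 genes all DKO arrays were above all Rb KO arrays, as in every gene called higher.

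Common proliferation markers did not pass. Mki67, the Ki-67 antigen, read 12.33, 12.45 and 12.06 in Rb KO against 12.53, 12.35 and 12.38 in DKO, which overlapped (0.14, adjusted p = 0.768, 95% confidence interval -0.14 to 0.43). The topoisomerase Top2a differed by 0.45 (adjusted p = 0.114), the mitotic kinase Aurkb by 0.42 (adjusted p = 0.126) and the mitotic kinase Plk1 by 0.06 (adjusted p = 0.933). These 4 were chosen after their values were seen. The count of mitotic genes called was 3 without Rb KO array 1, 25 without Rb KO array 2 and 2 without Rb KO array 3, DKO array 1 or DKO array 3. The list median was 0.31 to 0.52 over the fits without 1 array, with 55 to 59 members above 0. After background subtraction the list median was 0.44 with 59 members above 0, and no member was called. The count was 6 with median centring, 8 with renewed quantile normalization and 19 among genes that passed a filter on dim probe sets. Rb KO array 3, lowest of the mutant arrays in mitotic genes, was highest in 40 rod genes (mean 10.26), and DKO array 1, highest in mitotic genes, was lowest in rod genes (9.31). The part of these array differences in the result was not tested.

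**Figure D4:**
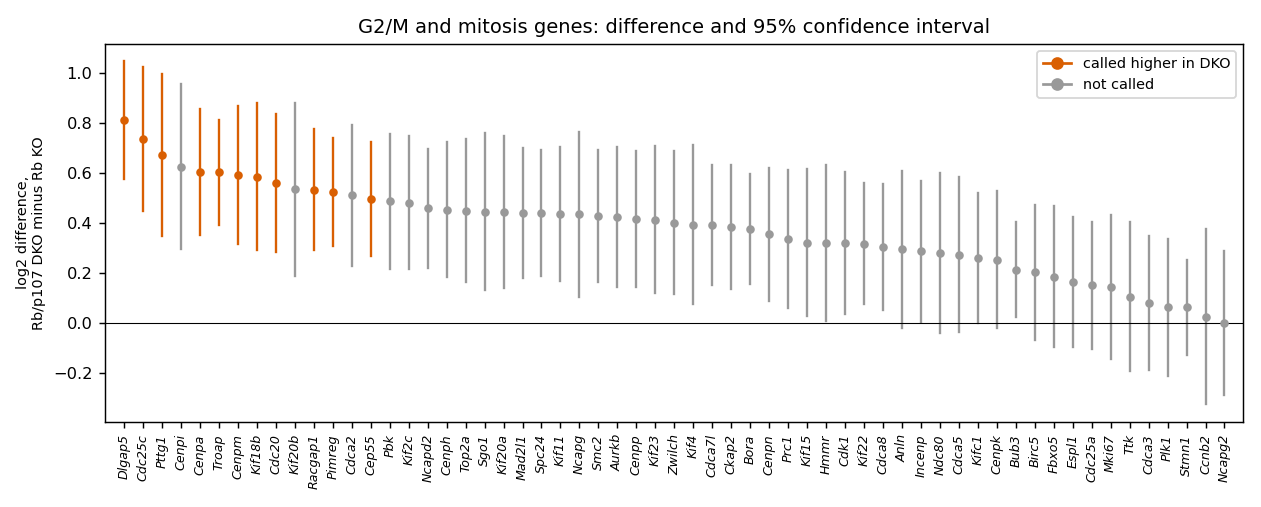
Log2 difference, DKO minus Rb KO, of the 59 G2 and mitosis genes, sorted, with 95% confidence intervals as bars and the 11 called genes in orange. All points lie above 0, with Dlgap5 highest at 0.81, and the intervals of many uncalled genes also lie above 0.

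The p107 protein is known to act at promoters through the DREAM complex. Of 9 promoters of called mitotic genes, 5 are shown with 3 kinds of motif in capitals. These are the CHR element (TTTGAA), the E2F site (TTTCCCGC or TTTGGCGC) and the CCAAT box (CCAAT), each searched on both strands, where matches of different motifs could overlap. The promoters run from 250 bases before to 50 bases after the start in RefSeq, build GRCm38.p6. Cdc20 is at chr4:118437294-118437593 (minus strand), Kif18b, a mitotic kinesin gene, at chr11:102925075-102925374 (minus strand), Racgap1, a cytokinesis gene, at chr15:99651607-99651906 (minus strand), Troap at chr15:99074723-99075022 (plus strand) and Cenpm, a centromere protein gene, at chr15:82244287-82244586 (minus strand).
Cdc20: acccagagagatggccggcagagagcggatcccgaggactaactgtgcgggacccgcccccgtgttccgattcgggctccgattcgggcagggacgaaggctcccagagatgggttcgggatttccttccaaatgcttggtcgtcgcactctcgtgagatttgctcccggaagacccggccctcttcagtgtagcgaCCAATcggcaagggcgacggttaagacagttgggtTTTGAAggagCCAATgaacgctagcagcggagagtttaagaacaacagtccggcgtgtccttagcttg
Kif18b: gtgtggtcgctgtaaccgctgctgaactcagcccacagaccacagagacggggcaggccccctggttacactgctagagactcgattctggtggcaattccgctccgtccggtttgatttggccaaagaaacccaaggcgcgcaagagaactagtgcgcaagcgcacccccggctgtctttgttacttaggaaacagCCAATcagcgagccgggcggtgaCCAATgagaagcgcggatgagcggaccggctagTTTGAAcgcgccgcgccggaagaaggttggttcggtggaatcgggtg
Racgap1: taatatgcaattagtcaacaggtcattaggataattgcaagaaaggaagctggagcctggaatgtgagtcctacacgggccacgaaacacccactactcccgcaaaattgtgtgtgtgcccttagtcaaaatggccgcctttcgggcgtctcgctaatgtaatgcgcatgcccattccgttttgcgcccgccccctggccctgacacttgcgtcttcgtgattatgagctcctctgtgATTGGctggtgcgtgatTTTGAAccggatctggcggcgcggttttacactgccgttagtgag
Troap: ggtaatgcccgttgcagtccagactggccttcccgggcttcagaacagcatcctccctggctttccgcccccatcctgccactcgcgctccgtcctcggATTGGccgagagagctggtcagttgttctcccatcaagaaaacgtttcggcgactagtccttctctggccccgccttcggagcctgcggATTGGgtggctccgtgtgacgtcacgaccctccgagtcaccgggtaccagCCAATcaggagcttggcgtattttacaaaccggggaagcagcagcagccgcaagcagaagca
Cenpm: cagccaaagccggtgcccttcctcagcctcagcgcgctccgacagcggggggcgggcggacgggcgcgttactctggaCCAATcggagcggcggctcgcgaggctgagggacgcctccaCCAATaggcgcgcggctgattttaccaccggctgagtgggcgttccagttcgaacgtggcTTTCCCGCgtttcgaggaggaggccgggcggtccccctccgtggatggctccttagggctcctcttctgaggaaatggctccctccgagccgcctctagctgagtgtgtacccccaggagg

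In Cdc20 the CHR match began 18 bases before the start, between CCAAT matches 53 and 8 bases before it. In Kif18b and Racgap1 the CHR match began after the start, by 3 and 5 bases. Kif18b held CCAAT matches before the start, and Racgap1 a CCAAT match 12 bases before it. Troap held CCAAT matches and no CHR match, and Cenpm held CCAAT matches and an E2F match 71 bases before the start. Of the 59 mitotic genes 47 had a promoter entry, with 52 promoters, and 73.1% of these held TTTGAA, against 17.9% of all 32851 promoters and 18.2% of the 44 promoters of G1/S genes. CCAAT was in 75% of the mitotic promoters and 37.4% of all. An E2F match was in 11.5% of the mitotic, 22.7% of the G1/S and 1.56% of all promoters. Among the promoters of called mitotic genes that are not shown, that of Pttg1 held no match to any of these motifs. Those of Cenpa and Cep55 held a CHR match. The 9 promoters of called mitotic genes belong to 8 of the 11 genes, as Dlgap5, Cdc25c and Pimreg had no entry. Overlapping promoters of Cep55 share the same CHR match, which is counted for both. The CHR match was in 6 of 9 promoters of called mitotic genes and in 32 of 43 promoters of the uncalled ones. Over all genes called higher it was in 14.7% of 224 promoters, and over all called lower in 13.9% of 230. A match describes letters in the window and not binding.

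Genes of G1/S and DNA replication, the classic E2F targets, mostly did not pass. Of 46, Tk1, a thymidine kinase, was called higher, with a list median of 0.17 and 40 of 46 above 0. Tk1 read 8.75, 8.49 and 8.17 in Rb KO against 9.25, 9.07 and 9.06 in DKO (0.65, SE 0.133, adjusted p = 0.0294; 0.0598 to 0.12 without Rb KO array 2 or 3 or any DKO array). Of 31 DNA repair and checkpoint genes 4 were called higher (Fanci, Chek2, Polq and Parpbp), with a list median of 0.24. Fanci, of the Fanconi anaemia pathway, read 6.90, 7.18 and 6.72 in Rb KO against 7.97, 7.68 and 7.77 in DKO (adjusted p = 0.00326), and neither group was above background, so its rise has no measured size. The same held for Chek2, a checkpoint kinase (adjusted p = 0.02), and Polq, a repair polymerase (adjusted p = 0.028). Parpbp, which binds a poly-ADP-ribose polymerase, read 7.79, 8.36 and 7.98 in Rb KO against 8.80, 8.53 and 8.60 in DKO (0.60, SE 0.139, adjusted p = 0.0498; 0.0585 to 0.196 in 7 of the 9 fits without 1 array, all but those without WT array 2 or Rb KO array 2). Without Rb KO array 1 or 3 or DKO array 1 or 3 only 1 repair gene was called, and without Rb KO array 2, 10 were. After background subtraction no member of either list was called, with list medians of 0.19 for G1/S and 0.29 for repair genes.

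Of 12 genes of E2F, DP and DREAM subunits none was called in limma and 1 had an unadjusted p under 0.05, with a list median of 0.10. Tfdp2, a DP partner of E2F, differed by 0.27 (SE 0.117, adjusted p = 0.33), and the repressive E2Fs E2f7 and E2f8 by 0.27 (adjusted p = 0.469) and 0.11 (adjusted p = 0.815). Of 17 genes of pocket proteins, CDK inhibitors and G1 cyclins, Cdk6, a kinase that inactivates pocket proteins, was called lower. Cdk6 read 8.53 to 8.59 in WT, 8.56, 8.76 and 8.92 in Rb KO against 8.02, 8.10 and 7.93 in DKO, so that DKO was below both other groups (-0.72, SE 0.0942, adjusted p = 0.00266, at least 1.29-fold), and the call held under every setting. Cdkn1a, the p21 inhibitor, differed by -0.30 (adjusted p = 0.222) and Cdkn2c, the p18 inhibitor, by 0.51 (adjusted p = 0.0987), both chosen after their values were seen. Of 21 replication-dependent histone genes, H2ac1 was called lower at -0.56 (SE 0.126, adjusted p = 0.0461), and the list median was -0.06. That call ended in 7 of the 9 fits without 1 array, all but those without WT array 2 or Rb KO array 3 (adjusted p = 0.0538 to 0.171).

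Of 23 p53 targets, Eda2r, a death receptor of the TNF receptor family, was called higher. It read 5.93, 6.52 and 6.02 in Rb KO against 7.20, 6.95 and 7.11 in DKO (adjusted p = 0.00584), all below background, so the rise has no measured size. Of 15 apoptosis genes none was called in limma and 1 had an unadjusted p under 0.05, Casp2, a caspase, at 0.31 (SE 0.0903, adjusted p = 0.124). Bid, a BH3-only activator of apoptosis, was not above background in any array, so its fitted 0.13 (adjusted p = 0.521) has no measured size. Of 18 Polycomb and DNA methylation genes 2 were called lower, Jarid2, a subunit of Polycomb complex PRC2, and Tet3, a methylcytosine oxidase. Jarid2 read 10.02, 9.93 and 10.12 in Rb KO against 9.52, 9.55 and 9.54 in DKO (-0.49, SE 0.0748, adjusted p = 0.00647), and the call held under every setting but the minimum of 1.5-fold. Tet3 read 10.27, 9.86 and 9.92 in Rb KO against 9.51, 9.55 and 9.50 in DKO (-0.50, SE 0.102, adjusted p = 0.0294). The Tet3 call ended without Rb KO array 3 or any DKO array (adjusted p = 0.0598 to 0.126). It also ended with the replicate block (adjusted p = 0.0525) and after background subtraction (adjusted p = 0.131).

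Rod genes as a list did not move one way. Of 40 measured, 4 were called lower (Prom1, Impg2, Nrl and Mak) and none higher, with a list median of -0.12 and differences from -0.83 to 1.18. The mean of the list was 11.20 to 11.31 in WT, 9.75, 9.52 and 10.26 in the Rb KO arrays against 9.31, 10.09 and 9.86 in the DKO arrays, so the mutants overlapped and both were below WT. The list median changed sign without Rb KO array 3 (0.09) or DKO array 1 (0.07). Prom1, a membrane protein of disc formation, read 10.77, 10.81 and 11.00 in Rb KO against 10.03, 10.48 and 10.34 in DKO (-0.58, SE 0.114, adjusted p = 0.0269). Impg2, a matrix protein around photoreceptors, read 11.70, 11.71 and 12.09 in Rb KO against 11.11, 11.35 and 11.17 in DKO (-0.63, SE 0.127, adjusted p = 0.0294). Mak, a kinase of photoreceptor cilia, differed by -0.78 (SE 0.165, adjusted p = 0.0348) and was named after its values were seen. Gnat1, the rod transducin alpha subunit, went the other way without passing, at 13.58 to 13.66 in WT, 11.04, 10.88 and 12.04 in Rb KO against 11.56, 13.15 and 12.79 in DKO, which overlapped (1.18, SE 0.373, adjusted p = 0.154). No rod gene was called lower without Rb KO array 1 or 3 or DKO array 1 or 3, nor after background subtraction.

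Of 13 cone genes 3 were called lower, with a list median of -0.14. Otop3, an otopetrin proton channel, read 8.19 to 8.64 in WT, 8.99, 8.73 and 9.08 in Rb KO against 7.67, 7.77 and 7.72 in DKO, at least 1.47-fold lower than Rb KO (-1.21, SE 0.125, adjusted p = 5.04e-04), and the call held under every setting. Gnb3, the transducin beta subunit of cones and bipolar cells, read 10.82, 10.55 and 11.05 in Rb KO against 9.64, 10.22 and 10.04 in DKO (-0.84, SE 0.153, adjusted p = 0.0178). Gngt2, the cone transducin gamma subunit, was not above background in any array (adjusted p = 0.0269), so its fall has no measured size. The cone opsins did not pass: Opn1sw differed by -0.10 (adjusted p = 0.9), and Opn1mw read 7.01, 6.80 and 7.73 in Rb KO against 7.46, 9.10 and 8.53 in DKO (adjusted p = 0.119). The calls of Gnb3 and Gngt2 ended without Rb KO array 1 or 3 or DKO array 1 or 3, and that of Gngt2 also without DKO array 2 (adjusted p = 0.0526 to 0.1 over both), and both after background subtraction.

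Most members of the lists of inner retinal cell types were not called. Of all genes 2.54% were called. Of 25 amacrine genes 3 were called higher (Elavl4, Neurod6 and Barhl2), with a list median of 0.14. Elavl4, a neuronal RNA-binding protein, read 8.39 to 8.49 in WT, 8.39, 8.46 and 8.45 in Rb KO against 8.90, 8.75 and 8.95 in DKO (0.44, SE 0.0745, adjusted p = 0.0124). It was level in WT and Rb KO and higher in DKO. Barhl2, a homeodomain factor of amacrine cells, read 10.67, 10.57 and 10.38 in Rb KO against 11.06, 10.93 and 11.12 in DKO (0.50, SE 0.113, adjusted p = 0.0473). Neurod6, a bHLH factor of an amacrine subtype, was below background in all arrays (adjusted p = 0.0294). None of the 3 was called without Rb KO array 1, DKO array 1 or DKO array 3, nor after background subtraction, and Elavl4 and Barhl2 not with median centring. The Barhl2 call ended without WT array 3 or any mutant array (adjusted p = 0.0639 to 0.188). It also ended with the replicate block (adjusted p = 0.085) and renewed quantile normalization (adjusted p = 0.0622). That of Neurod6 ended without any mutant array but Rb KO array 2 (adjusted p = 0.0592 to 0.0826).

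Of 12 starburst amacrine genes 8 had an unadjusted p under 0.05 in limma, all higher, with a list median of 0.29. In 7 of the 12 no mutant array was above background. Of this list Fezf1, a zinc-finger factor, was called higher. It read 8.04, 8.46 and 8.07 in WT, 6.72, 6.51 and 7.28 in Rb KO against 7.97 to 9.58 in DKO, at least 1.16-fold higher than Rb KO (fitted difference 1.76, SE 0.35, adjusted p = 0.0279). DKO array 3 was the highest at 9.58 and the only DKO array above background, and the call ended without Rb KO array 1 or 2 (adjusted p = 0.0794 to 0.112), with limma-trend (adjusted p = 0.0596) and after background subtraction (adjusted p = 0.154). Of 36 ganglion cell genes, Elavl4 was called higher and Jam2, a junction protein, and Isl2, a LIM-homeodomain factor, lower. Jam2 read 11.26, 11.43 and 11.30 in Rb KO against 10.80, 10.87 and 10.67 in DKO (-0.55, SE 0.099, adjusted p = 0.0158), and Isl2 had a fitted -0.42 (SE 0.0867, adjusted p = 0.03). Of Isl2 only 1 Rb KO array and no DKO array was above background, so that fall has no measured size. Of 10 horizontal cell genes Septin4, a septin, was called lower (-0.54, SE 0.0894, adjusted p = 0.0106). Of 33 synapse genes Cplx2, a complexin of transmitter release, was called lower (-0.70, SE 0.135, adjusted p = 0.023). Of 26 bipolar genes Otx2 was called, and of 21 Muller glia genes Hes1. The calls of Jam2, Isl2, Septin4 and Cplx2 ended without Rb KO array 3 or DKO array 1, and each without 1 or more other mutant arrays (adjusted p = 0.0504 to 0.139 over the 4 genes), and after background subtraction. That of Isl2 also ended with the replicate block (adjusted p = 0.0665) and median centring (adjusted p = 0.0908), and that of Cplx2 with median centring (adjusted p = 0.0504).

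**Figure D5:**
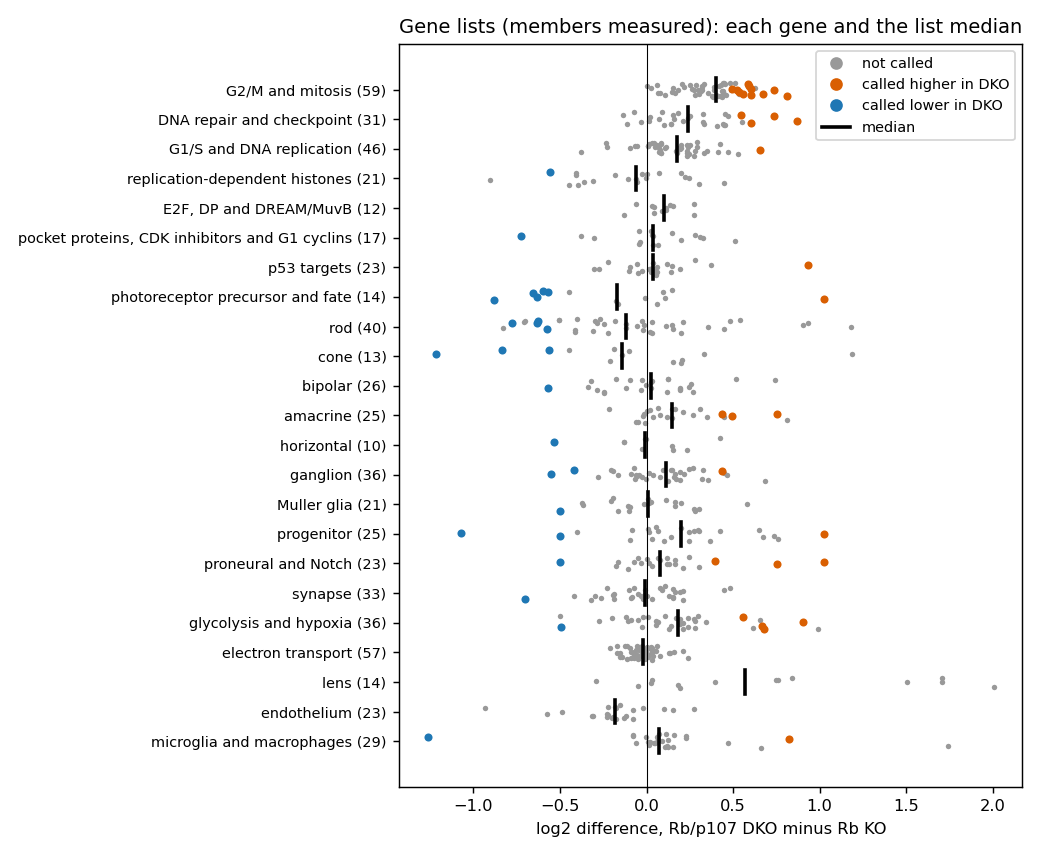
Log2 difference, DKO minus Rb KO, of each measured member of 23 gene lists, with called genes in orange (higher) or blue (lower), uncalled genes in grey and the list median as a black bar. The mitotic list lies right of 0 with a median of 0.40, the electron transport list lies close to 0, and the photoreceptor fate list holds 5 of the blue points and 1 orange point.

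In gliosis and stress genes 2 of 19 were called higher. Gfap, the filament of reactive glia, read 7.86, 7.99 and 7.61 in WT, 7.27, 7.26 and 7.42 in Rb KO against 7.94, 7.85 and 8.52 in DKO (0.78, SE 0.161, adjusted p = 0.0297), of which only DKO array 3 among the mutants was above background. Steap4, a metalloreductase, read 6.34, 6.01 and 5.93 in Rb KO against 6.99, 7.15 and 8.65 in DKO (1.5, SE 0.34, adjusted p = 0.0465), again highest in DKO array 3. Of Steap4 too only 1 DKO array and no Rb KO array was above background, so neither rise has a measured size. The Gfap call ended without any Rb KO array or DKO array 1 or 3, and that of Steap4 without any WT or Rb KO array (adjusted p = 0.0516 to 0.161 over both). The Gfap call also ended with the replicate block (adjusted p = 0.0514), with median centring (adjusted p = 0.0733) and after background subtraction (adjusted p = 0.171). That of Steap4 also ended with the replicate block (adjusted p = 0.0631) and in the fit of the 6 mutant arrays alone. It ended too with limma-trend, with renewed quantile normalization, with median centring and after background subtraction (adjusted p = 0.0517 to 0.154 over these settings).

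Of 36 glycolysis and hypoxia genes 4 were called higher (Bnip3, Bhlhe40, Slc2a3 and Slc16a3) and 1 lower (Ndrg1), with a list median of 0.18. Bnip3, a mitophagy receptor induced by hypoxia, read 9.74 to 9.94 in WT, 9.75, 9.73 and 9.69 in Rb KO against 10.58, 10.11 and 10.51 in DKO (0.68, SE 0.115, adjusted p = 0.0116). Bhlhe40, a bHLH repressor of the clock and the hypoxia response, read 8.50, 8.63 and 8.23 in WT, 7.84, 7.78 and 7.78 in Rb KO against 8.66, 8.38 and 9.07 in DKO, at least 1.24-fold higher (0.90, SE 0.154, adjusted p = 0.0124). Slc2a3, a glucose transporter, read 9.64 to 9.94 in WT, 8.96, 9.11 and 9.30 in Rb KO against 9.76, 9.62 and 10.00 in DKO (0.67, SE 0.122, adjusted p = 0.0178). In Bhlhe40 and Slc2a3 the DKO arrays lay at the WT level and the Rb KO arrays below it. Slc16a3, a lactate transporter, read 7.91, 7.87 and 7.83 in Rb KO, none above background, against 8.56, 8.18 and 8.54 in DKO, at least 1.03-fold higher (fitted difference 0.56, SE 0.104, adjusted p = 0.0208). Ndrg1, a stress-response gene, read 11.54, 11.52 and 11.67 in Rb KO against 11.03, 11.09 and 11.13 in DKO (-0.49, SE 0.0776, adjusted p = 0.00757). The Ndrg1 call held under every setting but the minimum of 1.5-fold. The 4 rises ended in part of the fits: none was called without Rb KO array 1, 1 was without Rb KO array 3, DKO array 1 or DKO array 3, 2 were without Rb KO array 2 or with median centring, and 7 members were without DKO array 2. Background subtraction ended all 4 rises (adjusted p = 0.105 for Bnip3, 0.128 for Bhlhe40 and 0.136 for Slc2a3).

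Other genes of that list did not pass, among them Vegfa, the endothelial growth factor, at 0.28 (adjusted p = 0.242), the glucose transporter Slc2a1 at 0.27 (adjusted p = 0.275) and Ldha, a lactate dehydrogenase, at -0.20 (adjusted p = 0.307), chosen after their values were seen. Of 57 genes of mitochondrial electron transport none was called in limma and 2 had an unadjusted p under 0.05, with differences from -0.21 to 0.24. Those 2 were Ndufb9, a subunit of complex I, at -0.21 (adjusted p = 0.31), and Atp5l, a subunit of ATP synthase, at 0.21 (adjusted p = 0.331). Of 22 ribosomal protein genes none was called and none had an unadjusted p under 0.05. Rpl22 was at 0.12 (adjusted p = 0.499), and Rpl6, not above background in any mutant array, at a fitted 0.14 (adjusted p = 0.489). Of 14 clock genes, Bhlhe40 and Dbp were called higher, Dbp, a clock output factor, at 9.52, 9.43 and 9.60 in Rb KO against 9.84, 10.18 and 10.05 in DKO (0.51, SE 0.105, adjusted p = 0.0315; 0.0726 to 0.126 without any Rb KO array or DKO array 2 or 3). The Dbp call also ended with the replicate block (adjusted p = 0.0534) and renewed quantile normalization (adjusted p = 0.0536). It ended too with median centring (adjusted p = 0.132) and background subtraction (adjusted p = 0.151). The time of day of sampling is not given in the labels.

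Of 23 immediate early genes 3 were called lower and none higher. Jun, an AP-1 subunit, read 9.36, 9.56 and 9.30 in WT, 10.22, 10.25 and 10.17 in Rb KO against 9.65, 9.55 and 9.72 in DKO (-0.57, SE 0.0842, adjusted p = 0.00561). Rb KO was high in all its arrays, and the call was kept in each fit without 1 array but not after background subtraction (adjusted p = 0.0508). Dusp5, a phosphatase of MAP kinases, read 9.26, 9.14 and 9.33 in Rb KO against 8.75, 8.71 and 8.70 in DKO (-0.52, SE 0.102, adjusted p = 0.0266). The Dusp5 call ended without Rb KO array 1 or 3 or any DKO array (adjusted p = 0.0698 to 0.11). It also ended with the replicate block (adjusted p = 0.0513), with median centring (adjusted p = 0.0847) and after background subtraction (adjusted p = 0.128). Klf4, a zinc-finger factor, was below background in all arrays (adjusted p = 0.0124).

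Markers of cells outside the neural retina were mostly dim. Of 14 lens genes none was called in limma and 7 had an unadjusted p under 0.05, all higher. Their median was 0.57 with DKO array 2 and 0.13 without it. Cryba1, a lens crystallin, read 7.15, 7.22 and 8.20 in Rb KO against 8.98, 11.20 and 8.41 in DKO (adjusted p = 0.119), and Crybb1, another, read 8.30, 8.10 and 8.57 in Rb KO against 9.25, 10.95 and 9.30 in DKO (1.51, SE 0.36, adjusted p = 0.0576, which was 0.00808 without DKO array 2). In both genes all 3 DKO arrays were above all Rb KO arrays, and DKO array 2 was by far the highest. Of 23 endothelial genes 19 were not above background in any mutant array, none was called, 1 higher and 6 lower had an unadjusted p under 0.05, and the median was -0.18. Their mean was 7.44, 7.50 and 7.59 in Rb KO against 7.18, 7.46 and 7.30 in DKO, and Mfsd2a, a lipid transporter of the blood-retina barrier, had a fitted difference of -0.49 (SE 0.12, adjusted p = 0.0651), with no DKO array above background. Slco1c1, a thyroid hormone transporter, had a fitted -0.93 (SE 0.228, adjusted p = 0.0637) with no mutant array above background, so it has no measured size. Without DKO array 2, 3 endothelial genes were called lower, among them Slco1c1 (adjusted p = 0.0208) and Mfsd2a (adjusted p = 0.0336). Slco1c1 also passed without Rb KO array 1 (adjusted p = 0.0499) and Mfsd2a without WT array 2 (adjusted p = 0.0329).

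Of 29 microglia and macrophage genes 23 were not above background in any mutant array, Ccl3, a chemokine, was called higher from background readings (adjusted p = 0.0181) and Ly86 lower. Of 31 interferon-stimulated and MHC class I genes, Ifit2 was called higher, at 7.51, 7.74 and 8.04 in Rb KO against 8.81, 8.79 and 8.76 in DKO, at least 1.32-fold (1.02, SE 0.128, adjusted p = 0.00216; 0.0783 after background subtraction), and 26 were not above background in any mutant array. Of 20 pericyte, smooth muscle and fibroblast genes, 5 erythrocyte genes and 9 sex-linked genes none was called in limma, and 5, 0 and 0 had an unadjusted p under 0.05. Of the first, Fbln1, a matrix protein, was at a fitted 0.47 (adjusted p = 0.266) with no Rb KO array above background, and Dcn, another, at 0.27 (adjusted p = 0.215) with no array above it. Tfrc, the transferrin receptor, was at 0.09 (adjusted p = 0.838). Hbb-y, an embryonic globin, at a fitted -0.14 (adjusted p = 0.752), and Tsix, the antisense RNA of Xist, at a fitted -0.55 (adjusted p = 0.484), were not above background in any array. Of 22 pigment epithelium genes Otx2 alone was called, and of 13 astrocyte and oligodendrocyte genes Olig2 and Gfap. The part of lens, endothelial or immune RNA in the other differences was not tested.

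Small nucleolar RNA (snoRNA) genes of chromosome 7 held the lowest p of the whole comparison. These genes lie between Ube3a and Snrpn in an imprinted interval known for its tandem snoRNA arrays, whose RNAs come from a long host transcript. Of 170 tested there, which have 78 distinct profiles since probe sets of near-identical copies share readings, 43 were called lower (14 distinct profiles) and none higher. In all 164 of 170 were below 0, with a median of -0.14. These counts take each copy as a gene, and 1 uncalled profile, at -0.11, covers 33 genes. Of the called profiles, those of Gm26096, Gm26498, Gm22348, Gm26466 and Gm25120 were not above background in any mutant array, so their falls have no measured size. Of 621 snoRNA genes elsewhere 15 were called higher and 1 lower, with a median of 0.05. The snoRNA genes of the interval were chosen after their values were seen and are outside the rule for named genes.

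Gm26337 read 9.02, 8.87 and 8.95 in WT, 8.98, 9.41 and 9.61 in Rb KO against 6.07, 5.69 and 6.27 in DKO. No DKO array was above background, so DKO was at least 1.94-fold lower than Rb KO (fitted difference -3.33, SE 0.168, adjusted p = 1.6e-05). WT and Rb KO overlapped. Gm26389, which shares its readings with 4 other copies, read 9.32, 8.73 and 9.25 in WT, 8.53, 8.89 and 8.80 in Rb KO against 6.73, 6.37 and 6.84 in DKO. Again no DKO array was above background, and DKO was at least 1.28-fold lower (fitted difference -2.09, SE 0.17, adjusted p = 1.03e-04). Gm26283, the readings of which cover 23 genes, was 10.49 to 10.83 in WT, 10.30, 10.50 and 10.37 in Rb KO against 9.22, 9.14 and 9.29 in DKO (-1.17, SE 0.099, adjusted p = 1.03e-04), and was above background in all arrays. Over all settings 33 to 47 of these snoRNA genes were called lower and none higher. Other genes there were not called: Ube3a, a ubiquitin ligase, was at 0.08 (adjusted p = 0.884), Snord64 at 0.19 (adjusted p = 0.684) and the nearby imprinted gene Ndn at 0.17 (adjusted p = 0.343). The host transcript Snhg14 was not above background in any array, so its fitted 0.32 (adjusted p = 0.486) has no measured size.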

How the data were processed

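Whole-retina RNA was hybridised to 9 Affymetrix arrays. Per the labels' protocols the RNA was purified on columns and kept where its integrity score was high. The deposited values are log2 intensities, summarised by RMA per the submitters' processing notes, and their software version and annotation build are not given in the sources used here. Of 59649 deposited probe sets, 52917 were transcript clusters, and of these 24646 had 1 gene symbol, 1795 several and 26476 none listed. The brightest cluster of each gene was kept, which left 24259 genes, with 658 symbols updated through RefSeq (GRCm38.p6).

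Groups came from the labels. A model of the 3 groups was fitted over all 9 arrays with limma 3.58.1 in R 4.3.3 (6 residual and 4.69 prior degrees of freedom). Every adjusted p is limma's, adjusted by Benjamini-Hochberg over all genes tested, and genes with an adjusted p under 0.05 are called. The procedure was tested on simulated data. Figures were drawn with matplotlib 3.10.9 in Python 3.11.15. The number of arrays limits the precision. The alternatives were a replicate block, the 6 mutant arrays alone, limma-trend with robust estimation, renewed quantile normalization, median centring, a filter on dim probe sets, the mean of a gene's probe sets, background subtraction, a fold minimum of 1.5 and leaving out each array.

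By rule, the text names Rb1, Rbl1 and Rbl2, and the 15 largest rises and 15 largest falls among called genes whose DKO and Rb KO arrays do not overlap and of which at least 2 arrays of the higher group are above background. Predicted genes, microRNAs, snoRNAs and olfactory and vomeronasal receptors were left out of these. It also names up to 3 rising and 3 falling called members of each list with the lowest p or, where none was called, the 2 members with the lowest p. Other genes are marked as chosen after their values were seen, as were Hes5, Dll1, E2f8, Parpbp, Opn1sw, Opn1mw, Gnat1, Gpnmb, Sox11 and Slc16a3. The members and lists were chosen with earlier results of these data known.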

Additional observations from a re-analysis of the deposited data

Results flagged for a closer look

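Among the 28271 transcript clusters that carry no single gene symbol, and so do not enter the comparison, 251 were called between DKO and Rb KO in a limma fit over all clusters. Of these 150 were higher and 101 lower in DKO, and 76 were above background in at least 3 arrays. They were picked out because they are a signal in data that the comparison leaves out. Their genes are not named here.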

How the results depend on the processing

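The 617 calls (324 higher, 293 lower) became 391 (185 higher) with median centring, 336 (182 higher, 154 lower) at a minimum of 1.5-fold and 133 (26 higher, about 1.1e+02 lower) after background subtraction, where the share of higher calls was 19.5% rather than 52.5%. Over the fits without 1 array the count was 253 to 859, with 100 to 456 higher and 153 to 403 lower. It was 302 without Rb KO replicate 1, 300 without Rb KO replicate 3, 271 without DKO replicate 1 and 253 without DKO replicate 3. The share of higher calls was 38.4%, 39.3% and 39.5% without Rb KO replicate 1, Rb KO replicate 3 and DKO replicate 3. The 6 mutant arrays alone gave 737 calls, limma-trend 723, the filter on dim probe sets 649, renewed quantile normalization 605 and the mean of probe sets 604. With the replicate block 501 were called (257 higher, 244 lower), while deviations of same-numbered Rb KO and DKO arrays correlated at 0.114, -0.162 and 0.061, so the numbers are not taken to pair the arrays. Of 69 called named genes 51 lost the call after background subtraction. The difference of Rb1 was 0.067 with the mean of its probe sets and -0.114 to 0.0167 over the fits without 1 array, above 0 without Rb KO replicate 2 (0.0095) or DKO replicate 1. That of Tfrc was -0.0231 to 0.146 over these fits, below 0 without Rb KO replicate 1. Those of Dcn and Hbb-y became 0 after background subtraction. The cause of these changes was not tested.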

Other observations

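Small RNA genes other than the chromosome 7 snoRNAs also differed, and were chosen after their values were seen. Of 59 ribosomal RNA genes 35 were called higher in DKO and none lower, 34 of them among 48 copies of 5S RNA on chromosome 8 that have only 9 distinct profiles, 4 of them called. Of 719 small nuclear RNA genes 33 were called higher and 2 lower. Readings of near-identical copies cannot be assigned to 1 copy. Rn5s read 10.73 to 10.91 in WT, 9.82, 9.76 and 9.41 in Rb KO against 10.26, 10.09 and 10.47 in DKO, so that DKO lay between the other groups. Of 333 predicted (Gm) genes of chromosome 14, 47 were called higher and 2 lower. The predicted gene Gm10340 varied within WT, at 9.82, 9.46 and 8.73, and read 8.37, 8.65 and 8.50 in Rb KO against 10.27, 10.12 and 10.11 in DKO. Of 15395 protein-coding genes 192 were called higher and 207 lower.

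Some genes near the threshold did not pass. Sox11, a transcription factor of immature neurons, read 10.91, 11.07 and 10.19 in Rb KO against 11.46, 11.42 and 11.49 in DKO (0.74, adjusted p = 0.0637). Gpnmb, a glycoprotein of pigment cells and macrophages, read 6.90, 6.68 and 6.77 in Rb KO against 8.66, 7.36 and 9.57 in DKO (1.74, adjusted p = 0.0504), with the 3 DKO arrays far apart.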
